A study of Homo sapiens with 12 samples.

Results

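The 42 genes described here encode proteins of the nucleolus that transcribe ribosomal RNA, cut and modify the transcript and assemble it into pre-ribosomes. They were listed by name and role, by a rule that uses no measured value but was drawn up with earlier results of these data known, and all 42 were among the 14866 genes of the deposited tables and among the 13502 genes that passed the filter on low values. They fall into 6 genes of RNA polymerase I transcription, 7 of the small nucleolar ribonucleoproteins (snoRNPs), 12 of small subunit processing, 12 of large subunit assembly and 5 other nucleolar factors. The question was how these genes stood in each drug group and how their levels related to the fall of MYC.

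The libraries came from SHI-1, an acute myeloid leukemia cell line that carries MLL-AF6, in 4 groups of 3 libraries from independent experiments, all collected after 16 h. The DMSO group received solvent, the DSF group 0.3 µM disulfiram with 1 µM copper, the NSM group 5 µM niclosamide, and the DSF+NSM group both drugs at those doses. DSF was thus never given without copper, and the text of the study does not say whether the DMSO and NSM groups received copper. Each drug was used at 1 dose and 1 time.

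Ribosome production begins in the nucleolus, where RNA polymerase I copies the ribosomal DNA into a long precursor. UBTF binds the ribosomal DNA and RRN3 brings the polymerase to it. Box C/D and box H/ACA snoRNPs then methylate and pseudouridylate the precursor, and large sets of assembly factors cut it and fold it into the small and large subunits. MYC, a transcription factor that binds the E-box CACGTG, is known to activate many of these genes, and their products are abundant in dividing leukemia cells.

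Values are the authors' normalized counts, which are comparable between libraries for 1 gene, and log2 fold changes were fitted on log2(value + 1) with limma, with Benjamini-Hochberg adjusted p-values over all 13502 genes and a threshold of 0.05. Normalized counts summed to 13963864 to 14379702 in DMSO, 14907290 to 15330685 in DSF, 16477426 to 17516910 in NSM and 22657898 to 25584448 in DSF+NSM libraries. For DSF+NSM against DMSO, the median over all genes was 0.03 on the authors' scale and -0.75 when libraries had equal sums, so changes are read here relative to that of all genes. NSM replicate 3 stood apart: its Spearman correlation across genes with the other NSM libraries was 0.939 and 0.950, against 0.980 to 0.996 for all other pairs within a group. Its values were more than 1.5 times the mean of the other NSM libraries for 9 members and below that mean divided by 1.5 for 7 members (21.4% and 16.7%, beside 25.3% and 29.5% of all genes). All 12 myeloid markers examined had values above 0 in every library, and the B cell marker MS4A1 was at 0 in all 12. The summed level of the myeloid markers was 75070 to 84322 in DMSO, 53346 to 59779 in DSF, 32984 to 44433 in NSM and 38249 to 39993 in DSF+NSM libraries. MPO was the largest part of these sums, with group means of 58058, 31892, 16981 and 21249. By limma, 1 of the 12 markers was lower and 2 higher with DSF (5.95% and 11.9% of all genes). These were 6 and 4 with NSM (23.7% and 25.4%), and 5 and 2 with DSF+NSM (24.5% and 28.3%). Markers of other cell types, of which 6 of 11 had a row, summed to 125 to 133 in DMSO and 214 to 482 in DSF+NSM libraries. Their part in the results was not tested.

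MYC fell step by step across the groups. It was at 6648, 7067 and 7246 in DMSO, 4824, 4562 and 5327 in DSF, 2545, 2775 and 2294 in NSM, and 376, 261 and 588 in DSF+NSM libraries. No library of one group reached the range of another. The log2 fold change from DMSO was -0.51 ± 0.22 (SE, n = 3 per group) for DSF, which did not pass the test (adjusted p from limma 0.13), and it was -1.46 in NSM (adjusted p 0.000185) and -4.17 in DSF+NSM cells (adjusted p 3.23e-08). The group means were 70.2%, 36.3% and 5.85% of the DMSO mean. The difference of DSF+NSM from NSM was -2.71 (adjusted p 3e-06).

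Since the RefSeq sequence around the start of each gene could be read, the E-box is shown first for 6 members that fell with DSF+NSM. Windows of 250 bases before to 50 bases after the start were held for 34 of the 42 members (GRCh38.p14). CACGTG, which reads the same on both strands, was present in at least 1 window of 14 of these 34 genes (41.2%), against 12.7% of the 9545 tested genes with a window. It was found in 34 of 115 other ribosome biogenesis factors (29.6%), 12 of 20 MYC targets outside ribosome biogenesis (60.0%), 6 of 16 genes of RNA polymerase III (37.5%), 0 of 8 of RNA polymerase II and 4 of 63 cytosolic ribosomal proteins (6.35%). The stretches below run 5′ to 3′ on the strand of the gene, 30 bases each, with the motif in capitals. They are the members with the largest falls among those that hold the motif.
MYBBP1A: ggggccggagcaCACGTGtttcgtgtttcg
EBNA1BP2: tggcgctggagcgattcggtggCACGTGga
GAR1: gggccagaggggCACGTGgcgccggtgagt
WDR43: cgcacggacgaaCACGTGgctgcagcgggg
UTP20: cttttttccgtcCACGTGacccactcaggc
GNL3: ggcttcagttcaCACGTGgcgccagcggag

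These lie at chr17:4555340-4555369 (minus strand) for MYBBP1A, chr1:43172241-43172270 (minus) for EBNA1BP2, chr4:109815781-109815810 (plus) for GAR1, chr2:28894658-28894687 (plus) for WDR43, chr12:101280083-101280112 (plus) for UTP20 and chr3:52686026-52686055 (plus) for GNL3. Counted from 1 at the annotated start, the motif began at base 28, 43, 32, 4 and 7 of MYBBP1A, EBNA1BP2, GAR1, WDR43 and GNL3, that is within the transcript, and at base -10 of UTP20, just before it. For UTP20, the 250 bases before the start (chr12:101279855-101280104, plus strand) are given because its motif, unlike the other motifs shown, lies upstream. EBNA1BP2 also holds the letters at base -237 of another annotated start.
UTP20 upstream: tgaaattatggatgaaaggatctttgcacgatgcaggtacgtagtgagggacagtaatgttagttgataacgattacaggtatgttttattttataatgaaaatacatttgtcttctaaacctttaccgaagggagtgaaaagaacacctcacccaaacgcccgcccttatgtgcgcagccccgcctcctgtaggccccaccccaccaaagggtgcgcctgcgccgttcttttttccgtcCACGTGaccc

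Members with and without the motif were set side by side. For DSF+NSM against DMSO the median log2 fold change was -0.92 in the 14 genes with the motif and -1.17 in the 20 without it. For NSM against DMSO these medians were -0.94 and -1.08. With DSF+NSM, 10 of the 14 and 17 of the 20 were called lower on the authors' scale (24.5% of all genes). NOP2, RRP9, FBL and DDX21 held the motif and were not called lower. The difference between the sets was not tested. POLR1A, POLR1B, POLR1C, UBTF, RRN3, WDR3 and NOP16 were among the genes whose windows lacked these letters, which says nothing of MYC binding elsewhere.

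Most members fell with NSM and with DSF+NSM, and fewer passed the test with DSF. With DSF, 16 of 42 members fell, where 5.95% of all genes tested fell and 17.8% changed in either direction. The median log2 fold change was -0.45 over the members and 0.05 over all genes. At an unadjusted p under 0.05 limma gave 25 members, all lower, where 4410 of the 13502 genes tested passed in either direction. No member rose at either threshold. With NSM, 33 members fell (background 23.7%) and NOB1 rose (25.4%), and 49.1% of all genes changed. The medians were -0.99 and 0.01. With DSF+NSM, 32 members fell (24.5%) and NOP2 and NOB1 rose (28.3%), where 52.8% of all genes changed, with medians of -1.07 and 0.03. Under equal sums NOP2 and NOB1 were at -0.33 and -0.39, beside a median of -0.75 over all genes. In cultures analysed as a whole, a lower level in every cell and a loss in some of the cells cannot be told apart.

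**Figure D1:**
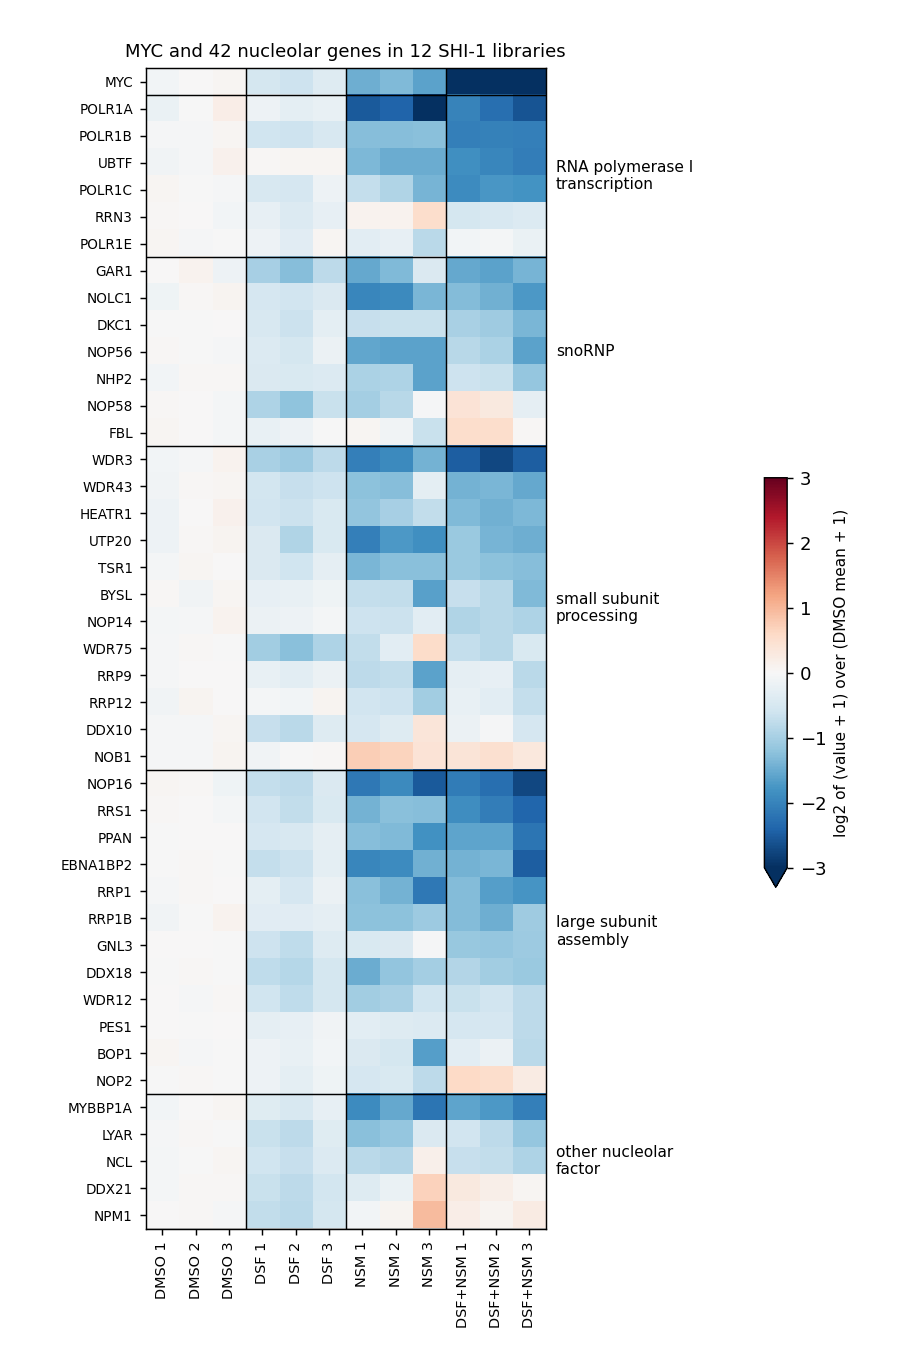
Heat map of MYC (top) and the 42 members (rows, by role) in 12 libraries (columns), coloured by the log2 of each value plus 1 over the DMSO mean plus 1. Colours stop at 3 in both directions. Blue prevails in the DSF, NSM and DSF+NSM columns, and NOB1 is above DMSO in every NSM and DSF+NSM library. Under equal sums NOB1 is below DMSO with DSF+NSM, at -0.39 beside a median of -0.75 over all genes. NSM replicate 3 departs from the other NSM libraries in several rows.

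The separation of individual libraries was also counted. Every DSF library was below every DMSO library for 35 members (27.6% of all genes tested) and the groups overlapped for the other 7. Every NSM library was below DMSO for 33 members (27.9%) and above for RRN3 and NOB1 (29.1%). Every DSF+NSM library was below DMSO for 35 members (32.9%) and above for NPM1, NOP2, DDX21 and NOB1 (36.4%), all 4 of which were below DMSO under equal sums (-0.33 to -0.61). When the libraries were scaled to equal sums, all 42 members fell with DSF+NSM, with a member median of -1.85 beside -0.75 over all genes.

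The count for DSF depended on single libraries, and that for the other groups did so less. With DSF, 28 members fell when NSM replicate 3 was left out, although that library is in neither group, since all groups share 1 estimate of the spread. The count was 7, 4 and 8 without DMSO replicate 1, 2 and 3, and 6 and 3 without DSF replicate 1 and 2. DDX18, POLR1B and WDR3 remained called whichever library was left out, and the other 13 were each lost at least once. With NSM, 31 of the 34 called members remained, the exceptions being BOP1, NOP58 and POLR1E, and with DSF+NSM 30 of 34, the exceptions being NOB1, NOP2, RRP12 and WDR75.

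**Figure D2:**
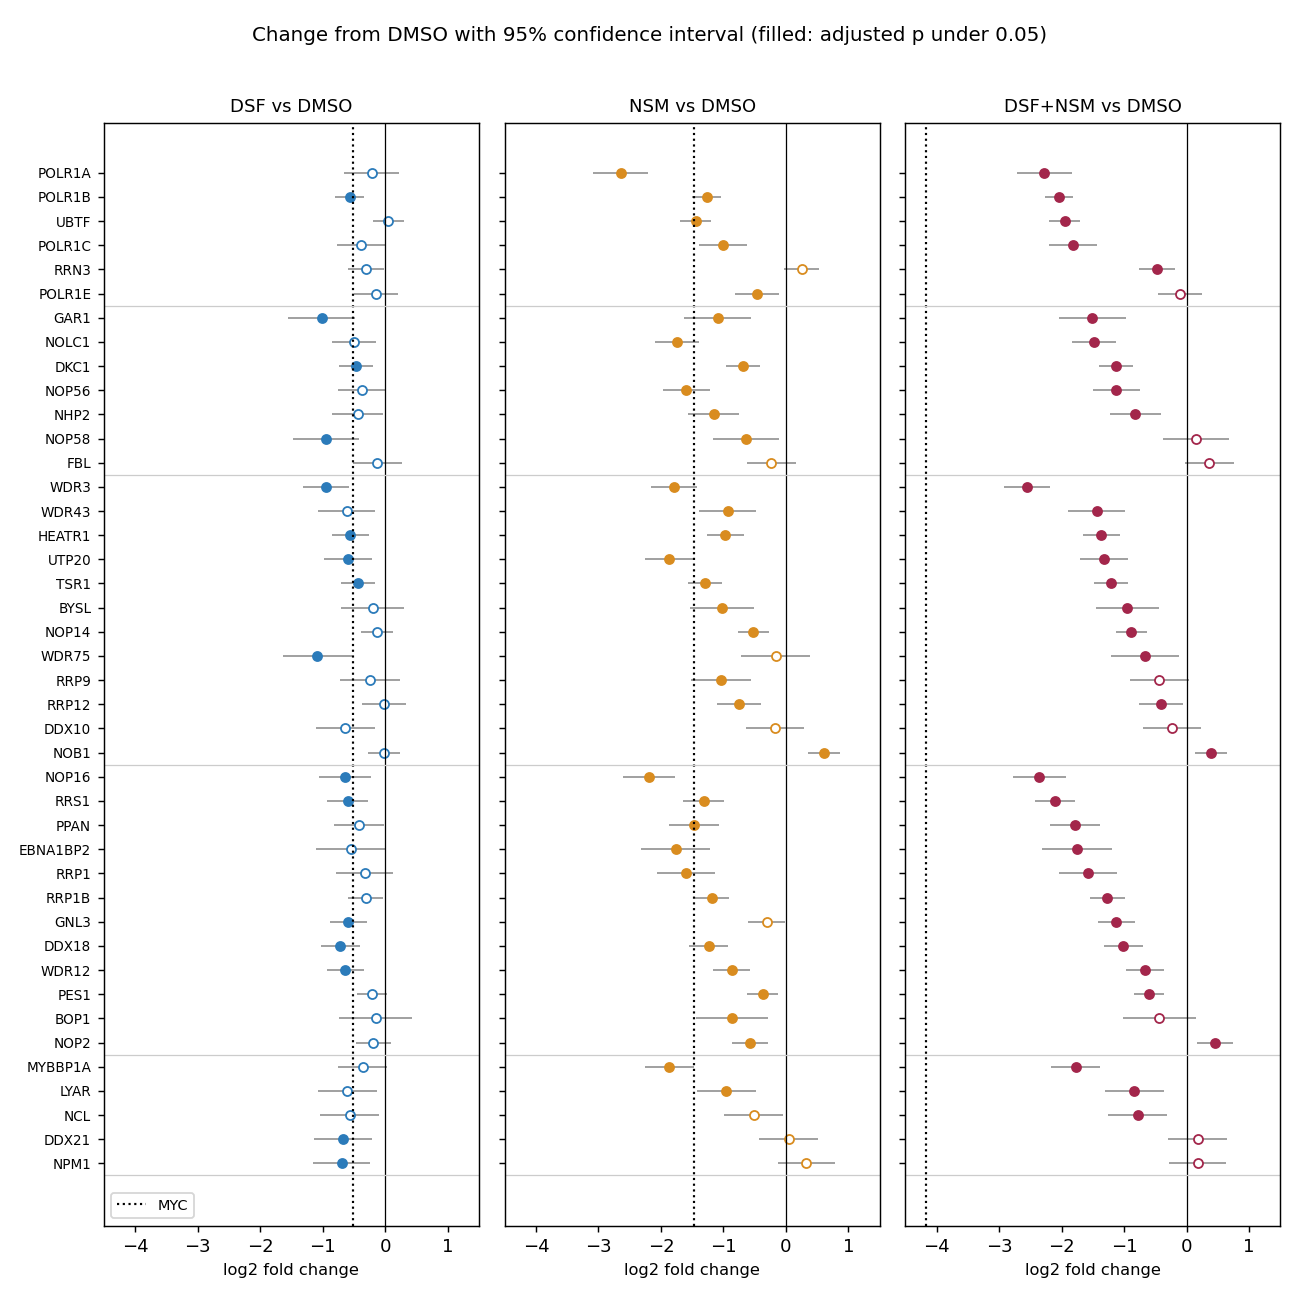
Log2 fold change from DMSO (x axis) for each of the 42 members (y axis, by role) with DSF, NSM and DSF+NSM. Points are fitted changes with 95% confidence intervals, filled where the adjusted p was under 0.05, and the dotted line is MYC at -0.51, -1.46 and -4.17. No member reached the fall of MYC with DSF+NSM, the lowest being WDR3 at -2.55, whereas several lie near or beyond it with DSF or NSM.

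Of the 6 members of the RNA polymerase I group, 1 fell with DSF and 5 fell in each of the NSM and DSF+NSM groups. Of all genes, 5.95%, 23.7% and 24.5% fell with DSF, NSM and DSF+NSM. NSM was lower than DSF for 4 of the 6 members and higher for RRN3 (0.55, adjusted p 0.00491), where 44.4% of all genes changed. POLR1A (chromosome 2, 86020216 to 86106155, GRCh38), the largest subunit of the enzyme, was at 690, 785 and 913 in DMSO, 716, 652 and 680 in DSF, 137, 150 and 96.3 in NSM, and 199, 165 and 131 in DSF+NSM libraries. DMSO and DSF overlapped and all NSM and DSF+NSM libraries were far below both. Its log2 fold change was -0.21 ± 0.20 (SE) with DSF, -2.64 with NSM (adjusted p from limma 1.19e-06), the largest fall of any member in that comparison, and -2.28 with DSF+NSM (adjusted p 2.04e-06). POLR1A did not pass the test between DSF+NSM and NSM, where it was at 0.37 (95% interval -0.07 to 0.81) and at -0.14 when libraries were scaled to equal sums.

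POLR1B (chromosome 2, 112541915 to 112579818), the second largest subunit, followed the steps of MYC with little spread. It was at 1612, 1621 and 1733 in DMSO, 1094, 1075 and 1180 in DSF, 685, 685 and 693 in NSM, and 399, 405 and 398 in DSF+NSM libraries. No groups overlapped. The log2 fold change from DMSO was -0.57 ± 0.11 with DSF (adjusted p 0.00367), -1.26 with NSM (adjusted p 2.32e-06) and -2.04 with DSF+NSM (adjusted p 2.82e-08), and the group means were 67.4%, 41.6% and 24.2% of DMSO.

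POLR1C (chromosome 6, 43509702 to 43562419), a subunit that RNA polymerase I shares with RNA polymerase III, was at 862, 820 and 809 in DMSO, 591, 582 and 748 in DSF, 508, 441 and 315 in NSM, and 222, 246 and 239 in DSF+NSM libraries. Each group lay below the one before. The change was -0.38 ± 0.18 with DSF (adjusted p 0.154), -1.005 with NSM (adjusted p 0.000554) and -1.81 with DSF+NSM (adjusted p 4.4e-06). POLR1E (chromosome 9, 37485948 to 37503697), another subunit, was at 869, 817 and 830 in DMSO, 749, 664 and 873 in DSF, 674, 703 and 477 in NSM, and 797, 799 and 735 in DSF+NSM libraries. It was lower with NSM at -0.46 ± 0.16 (adjusted p 0.0311), a call lost when any 1 DMSO library was left out, and did not pass the test with DSF+NSM at -0.11 (adjusted p 0.589).

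For UBTF (chromosome 17, 44205033 to 44221626) no difference from DMSO was detected with DSF alone. It was at 2049, 2125 and 2393 in DMSO, 2248, 2277 and 2276 in DSF, 861, 778 and 775 in NSM, and 612, 564 and 518 in DSF+NSM libraries. The log2 fold change was 0.05 with DSF (95% interval -0.19 to 0.30, and -0.04 under equal sums), -1.44 ± 0.11 with NSM (adjusted p 1.56e-06) and -1.95 with DSF+NSM (adjusted p 7.4e-08). Its interaction, what remains of the DSF+NSM change once both single-drug changes are subtracted, was -0.57 (adjusted p 0.022), the one negative interaction called among the members. That call was lost when either DMSO replicate 1 or 2, or DSF replicate 1 or 2, was left out.

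RRN3 (chromosome 16, 15060033 to 15094311) was at 1474, 1449 and 1358 in DMSO, 1195, 1077 and 1200 in DSF, 1534, 1545 and 2066 in NSM, and 998, 1015 and 1070 in DSF+NSM libraries. All NSM libraries were above DMSO, but the change of 0.25 did not pass the test (adjusted p 0.13) and was -0.02 under equal sums. DSF+NSM was lower than DMSO by -0.47 ± 0.13 (adjusted p 0.00896) and lower than NSM by -0.73 (adjusted p 0.00104). RRN3 has 5 named pseudogenes in GENCODE 44, and reads may have been split between copies.

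**Figure D3:**
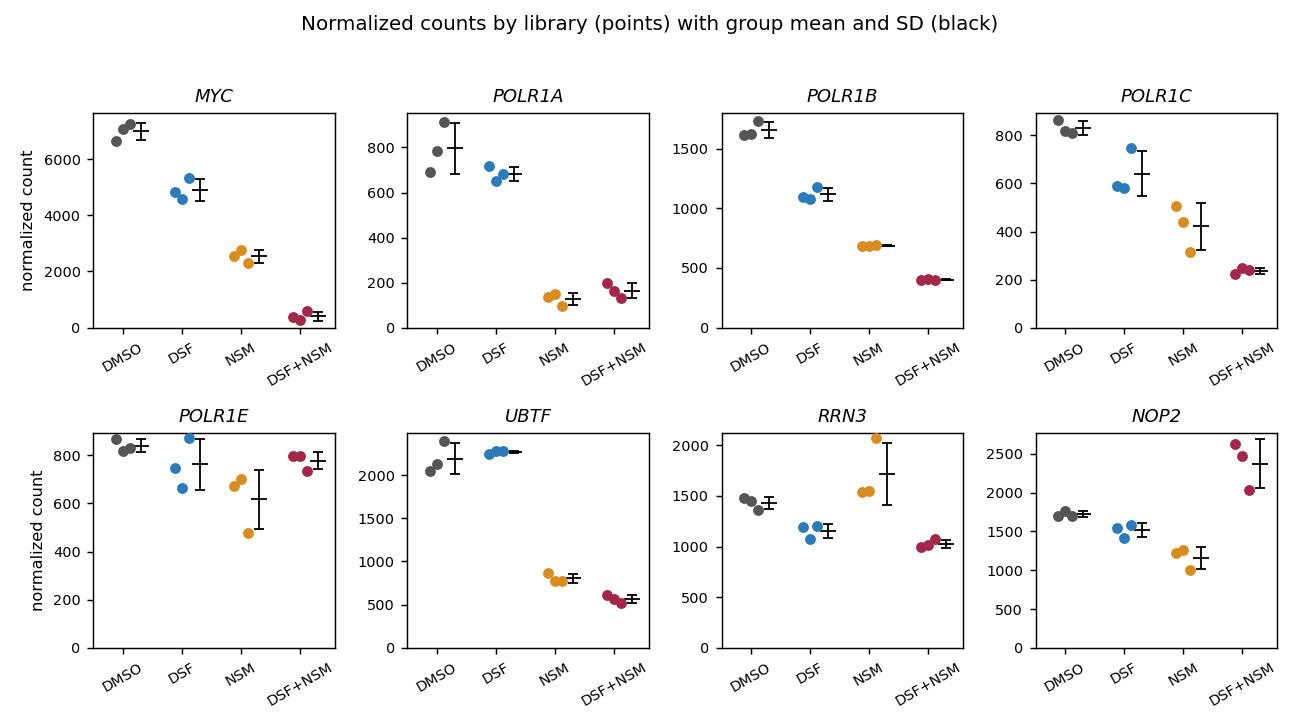
Normalized counts (y axis, from 0) of MYC, the 6 RNA polymerase I members and NOP2 in the 3 libraries of each group (x axis), with the group mean and SD in black. MYC and POLR1B step down from DMSO to DSF+NSM without overlap, and the UBTF libraries of DSF lie within the DMSO range. NOP2 is above DMSO in all DSF+NSM libraries. Under equal sums that difference is -0.33, beside a median of -0.75 over all genes.

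Of the 7 snoRNP members, 6 fell with NSM (23.7% of all genes) and 5 with DSF+NSM (24.5%). FBL (chromosome 19, 39834458 to 39846379), the methyltransferase fibrillarin, was at 5053, 4914 and 4689 in DMSO, 4206, 4424 and 4856 in DSF, 5113, 4534 and 3088 in NSM, and 7041, 6995 and 5010 in DSF+NSM libraries. It passed the test in no comparison with DMSO, and was at 0.36 with DSF+NSM (adjusted p 0.114) and at -0.42 under equal sums. NOP58 (chromosome 2, 202265736 to 202303661), a scaffold of the same particle, was at 2994, 2955 and 2814 in DMSO, 1529, 1263 and 1831 in DSF, 1448, 1629 and 2829 in NSM, and 3905, 3573 and 2435 in DSF+NSM libraries. The DSF libraries were all well below DMSO, NSM replicate 3 reached the DMSO range, and DSF+NSM overlapped it.

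NOP58 fell with DSF, at -0.94 ± 0.24 on the log2 scale (adjusted p 0.0203), and with NSM by -0.63 (adjusted p 0.0464), and was at 0.15 with DSF+NSM (adjusted p 0.631, and -0.63 under equal sums). The DSF call was lost when any 1 DMSO library or DSF replicate 1 or 2 was left out, and the NSM call when any 1 of 9 libraries was left out. NOP56, the partner of NOP58, had 6075 to 6318 in DMSO, 4323 to 5454 in DSF, 2032 to 2092 in NSM and 2020 to 3501 in DSF+NSM libraries, with changes of -0.37 (adjusted p 0.166), -1.59 (1.79e-05) and -1.12 (0.000186).

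The box H/ACA proteins DKC1, GAR1 and NHP2 each fell with NSM and with DSF+NSM, and DKC1 and GAR1 also with DSF. DKC1 (chromosome X, 154762742 to 154777689), the pseudouridine synthase dyskerin, was at 3998, 4000 and 4076 in DMSO, 2905, 2584 and 3294 in DSF, 2485, 2541 and 2513 in NSM, and 2034, 1925 and 1566 in DSF+NSM libraries, without overlap between any groups. Its log2 fold change was -0.47 ± 0.13 (adjusted p 0.0237), -0.68 (0.00077) and -1.14 (1.15e-05) with DSF, NSM and DSF+NSM. GAR1, whose start is shown above, was at 903, 966 and 810 in DMSO, 448, 368 and 516 in DSF, 305, 358 and 664 in NSM, and 306, 291 and 342 in DSF+NSM libraries. It fell by 1.02 ± 0.25 on the log2 scale with DSF (adjusted p 0.0148), 1 of the 3 largest falls in that comparison, and by 1.51 with DSF+NSM (adjusted p 0.000249). NHP2 changed by -0.44 (adjusted p 0.131), -1.16 (0.000327) and -0.82 (0.00293), and NOLC1, a snoRNP chaperone, by -0.50 (0.0503), -1.74 (4.99e-06) and -1.49 (1.1e-05).

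Among the 12 small subunit factors, 9 fell (23.7% of all genes) and NOB1 rose (25.4%) with NSM. With DSF+NSM likewise 9 fell (24.5%) and NOB1 rose (28.3%). Under equal sums this rise of NOB1 turned to -0.39, beside a median of -0.75 over all genes. WDR3 (chromosome 1, 117929720 to 117966543), a component of the complex that forms on the precursor's 5′ region, had the largest fall of any member with DSF+NSM. It was at 1775, 1834 and 2010 in DMSO, 954, 876 and 1089 in DSF, 454, 494 and 703 in NSM, and 336, 283 and 337 in DSF+NSM libraries. No groups overlapped, and the changes were -0.95 ± 0.17 (adjusted p 0.00287), -1.79 (5.58e-06) and -2.55 (1.84e-07). WDR3 shares 1760 exonic bases with SPAG17 on the other strand, HEATR1 2095 with LGALS8 and TSR1 1146 with SRR, and the strand setting of the counting was not given in the sources used here.

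UTP20 (chromosome 12, 101280105 to 101386618), a large scaffold protein and the member of lowest level per kilobase of transcript in DMSO, was at 465, 531 and 549 in DMSO, 384, 275 and 376 in DSF, 123, 155 and 143 in NSM, and 238, 194 and 186 in DSF+NSM libraries. Every DSF+NSM library lay above every NSM library and below every DSF library. The changes from DMSO were -0.59 ± 0.18 (adjusted p 0.0383), -1.87 (5.51e-06) and -1.32 (5.49e-05). The DSF call was lost when any 1 DMSO or DSF library or DSF+NSM replicate 2 was left out.

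WDR75, which acts in the same early complex as WDR43, was at 1706, 1804 and 1748 in DMSO, 846, 729 and 918 in DSF, 1048, 1409 and 2579 in NSM, and 1068, 982 and 1281 in DSF+NSM libraries. It had the largest fall with DSF at -1.08 ± 0.25 (adjusted p 0.0126), a call lost without DMSO replicate 2 or DSF replicate 2, while the NSM libraries spread from below to above DMSO (-0.17, adjusted p 0.61). NOB1 (chromosome 16, 69741871 to 69754926), the nuclease that makes the last cut of the small subunit RNA in the cytoplasm, was at 1589, 1595 and 1719 in DMSO, 1511, 1630 and 1681 in DSF, 2747, 2598 and 2161 in NSM, and 2127, 2281 and 2029 in DSF+NSM libraries. It rose with NSM by 0.61 ± 0.12 (adjusted p 0.0011), a direction kept under equal sums, and with DSF+NSM by 0.39 (adjusted p 0.014). The latter was -0.39 under equal sums, beside a median of -0.75 over all genes. NOB1 shares 429 exonic bases with the non-coding gene NQO1-DT on the other strand.

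The other small subunit factors ranged from -0.63 to -0.02 with DSF and from -1.44 to -0.24 with DSF+NSM. HEATR1 was lower in every drug group, at -0.56 (adjusted p 0.0158), -0.97 (0.000106) and -1.37 (5.24e-06), and TSR1, at -0.44 (0.0302), -1.29 (6.38e-06) and -1.21 (6.81e-06), was also called in each. WDR43, BYSL, NOP14 and RRP12 fell with NSM and DSF+NSM, the last at -0.41 (adjusted p 0.0486) with DSF+NSM, a call lost in 9 of the 12 fits that left out a library. RRP9, the snoRNA-binding protein of this set, fell with NSM only by the test (-1.04, adjusted p 0.00193), being at -0.44 with DSF+NSM (0.113), and DDX10 passed in no comparison with DMSO.

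Of the 12 large subunit factors, 11 fell with NSM (23.7% of all genes). With DSF+NSM 10 fell (24.5%) and NOP2 rose (28.3%). Under equal sums this rise of NOP2 turned to -0.33, beside a median of -0.75 over all genes. NOP16 (chromosome 5, 176383946 to 176388927) was at 1866, 1834 and 1638 in DMSO, 1088, 1037 and 1307 in DSF, 403, 471 and 307 in NSM, and 415, 371 and 267 in DSF+NSM libraries. NSM and DSF+NSM overlapped with each other and lay far below DSF. The changes were -0.64 ± 0.19 (adjusted p 0.0393), -2.19 (3.35e-06) and -2.36 (1.09e-06). RRS1, which brings the 5S ribonucleoprotein to the pre-ribosome, was at 1280, 1251 and 1200 in DMSO, 829, 740 and 904 in DSF, 464, 523 and 513 in NSM, and 343, 293 and 238 in DSF+NSM libraries, a step down at each group, with changes of -0.60 ± 0.15 (adjusted p 0.0178), -1.31 (2.23e-05) and -2.11 (3.27e-07).

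NOP2 (chromosome 12, 6556863 to 6568691), an rRNA methyltransferase long used as a marker of proliferation, went the other way in the combination on the authors' scale. Under equal sums NOP2 was below DMSO at -0.33, though above the median of -0.75 over all genes. It was at 1696, 1765 and 1701 in DMSO, 1551, 1410 and 1584 in DSF, 1222, 1259 and 999 in NSM, and 2625, 2472 and 2028 in DSF+NSM libraries. Each single drug put every library below DMSO and the combination put every library above it. The change was -0.19 ± 0.13 with DSF (adjusted p 0.359), -0.58 with NSM (adjusted p 0.00325) and 0.46 with DSF+NSM (adjusted p 0.0113), the last being 0.38 (adjusted p 0.0532) without DSF+NSM replicate 1 and -0.33 under equal sums. NOP2 shares 2550 exonic bases with another annotated protein-coding gene on the same strand, so its reads may have been split.

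GNL3 (chromosome 3, 52681156 to 52694497), the nucleolar GTPase nucleostemin, was at 3762, 3750 and 3671 in DMSO, 2437, 2202 and 2847 in DSF, 2712, 2745 and 3666 in NSM, and 1705, 1676 and 1747 in DSF+NSM libraries. The combination was below every other library. GNL3 fell with DSF (-0.59 ± 0.14, adjusted p 0.0121) and DSF+NSM (-1.12, adjusted p 2.44e-05), and NSM was at -0.31 (adjusted p 0.0778), with replicate 3 near DMSO. The DSF call was lost without DMSO replicate 2 or DSF replicate 1 or 2.

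PES1, BOP1 and WDR12 make up the PeBoW complex, and all 3 passed the test with NSM. PES1 was at -0.21 (adjusted p 0.223), -0.37 (0.0147) and -0.60 (0.000656), WDR12 at -0.63 (0.00926), -0.87 (0.000281) and -0.67 (0.00149), and BOP1 at -0.15 (0.747), -0.87 (0.0176) and -0.44 (0.19) with DSF, NSM and DSF+NSM. The NSM call of BOP1 was lost without DMSO replicate 1. In NSM replicate 3, BOP1 was at 0.44 times the mean of the other NSM libraries, the lowest such ratio of any member. EBNA1BP2, PPAN, RRP1, RRP1B and DDX18 fell with NSM by 1.19 to 1.76 on the log2 scale and with DSF+NSM by 1.01 to 1.78, and of these DDX18 also fell with DSF (-0.72, adjusted p 0.00537). PPAN shares 1374 exonic bases with the readthrough gene PPAN-P2RY11.

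The 5 other nucleolar factors include NPM1 and NCL, the members of highest level per kilobase of transcript in DMSO. Per kilobase of the canonical transcript, the DMSO level was 25807 normalized counts for NPM1, 4660 for NCL and 4343 for FBL, against 57.0 for UTP20. NPM1 (chromosome 5, 171387116 to 171411810), the histone and ribosome chaperone nucleophosmin, was at 34284, 34676 and 33235 in DMSO, 20264, 19362 and 23827 in DSF, 32402, 35964 and 66246 in NSM, and 39380, 35855 and 40630 in DSF+NSM libraries. All DSF libraries were below DMSO, and NSM replicate 3 was far above the rest. NPM1 fell with DSF by 0.69 ± 0.21 on the log2 scale (adjusted p 0.0396), a call lost when any 1 of 8 libraries was left out, and was at 0.32 with NSM (adjusted p 0.224) and 0.18 with DSF+NSM (adjusted p 0.499, and -0.60 under equal sums). With 49 named pseudogenes, its reads may have been shared with copies.

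NCL (chromosome 2, 231453531 to 231483641), nucleolin, was at 17496, 18232 and 19134 in DMSO, 12000, 11275 and 13863 in DSF, 10504, 9897 and 20189 in NSM, and 11377, 10988 and 9597 in DSF+NSM libraries. The DSF and DSF+NSM libraries were all below DMSO, and NSM replicate 3 was above it. DSF+NSM passed the test (-0.78 ± 0.22, adjusted p 0.00902), while DSF (-0.57, 0.0897) and NSM (-0.51, 0.0668) did not. Without NSM replicate 3 both also passed.

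MYBBP1A, a MYB-binding repressor that also acts in rRNA processing, and LYAR, a zinc finger protein of the pre-ribosome, fell with NSM (-1.87, adjusted p 6.44e-06, and -0.95, 0.003) and with DSF+NSM (-1.78, 6.06e-06, and -0.84, 0.00575). DDX21, a helicase that couples RNA polymerase I transcription to processing, fell with DSF (-0.67, adjusted p 0.0496), a call lost when any 1 of 10 libraries was left out. It was at 0.05 with NSM (0.879), and at -0.28 (adjusted p 0.0229) without NSM replicate 3.

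DSF+NSM was also compared with NSM alone. MYC was lower in the combination, at -2.71, whereas the median of the members was -0.03 beside 0.03 over all genes. Of the members, 10 were lower (18.3% of all genes tested) and 5 higher (20.3%). The 15 called of 42 were a share not above the 38.6% of all genes that changed. The lower ones were POLR1B (-0.78 ± 0.11, adjusted p 0.000143), POLR1C (-0.81, 0.00355), UBTF (-0.51, 0.00405), RRN3 (-0.73, 0.00104), GNL3 (-0.82, 0.000586), RRS1 (-0.79, 0.00142), WDR3 (-0.76, 0.00384), DKC1 (-0.46, 0.0125), NOP14 (-0.36, 0.0261) and HEATR1 (-0.39, 0.037). The lower ones included 4 of the 6 RNA polymerase I members. Of 9 other genes of RNA polymerase I transcription, outside the members, 0 were lower and 2 higher.

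The higher ones were NOP2 (1.03 ± 0.13, adjusted p 8.98e-05), NOP58 (0.78, 0.0232), RRP9 (0.60, 0.0459), FBL (0.59, 0.0215) and UTP20 (0.55, 0.0274). GNL3, NOP2, POLR1B, RRN3 and RRS1 were called under every alternative tried. Equal sums gave 22 members lower and 1 higher, with a member median of -0.54 beside -0.48 over all genes. The count was 9 without DSF+NSM replicate 1 or 2, and without NSM replicate 3 it was 13 lower and 9 higher. Every DSF+NSM library was below every NSM library for 12 members (19.3% of all genes) and above for NOP2, UTP20 and POLR1E (22.2%), the last at 0.35 (95% interval 0.00 to 0.70, adjusted p 0.103) and at -0.16 under equal sums.

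**Figure D4:**
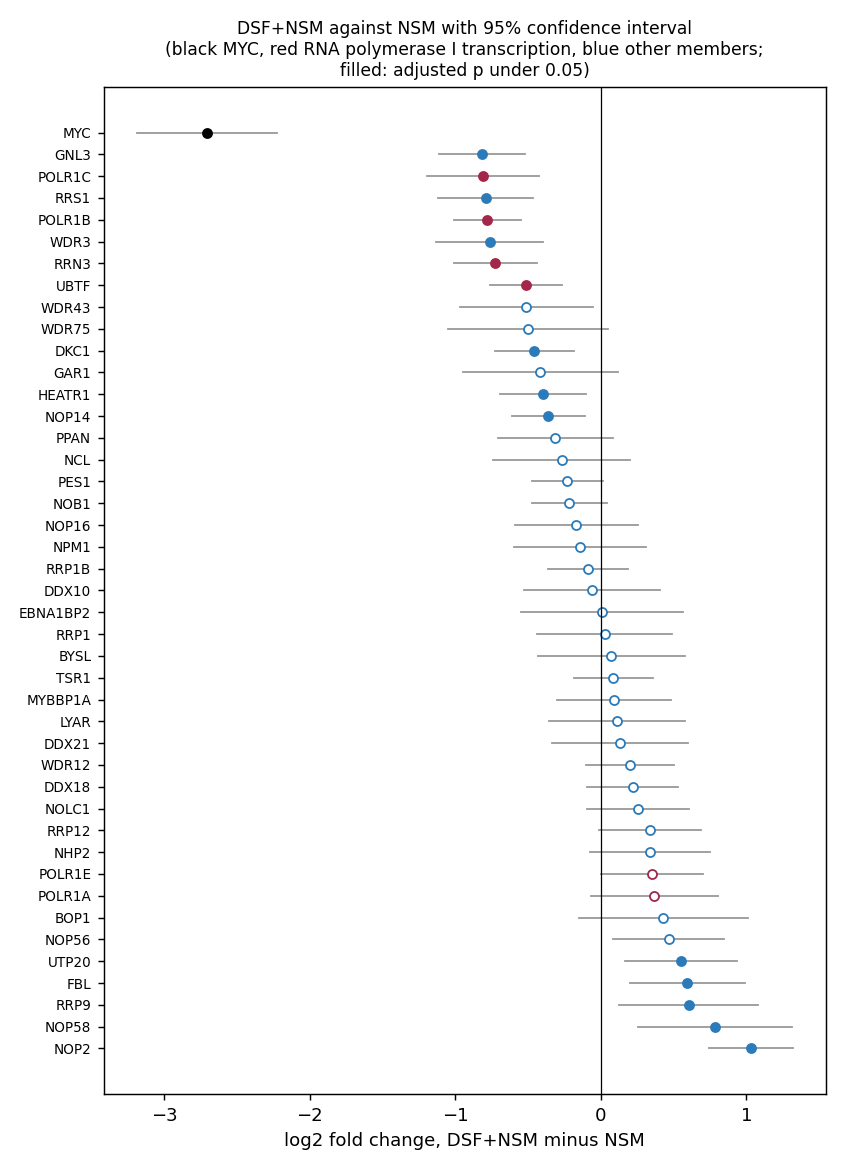
Log2 fold change of DSF+NSM minus NSM (x axis) for MYC and the 42 members (y axis, sorted), with 95% confidence intervals, filled where the adjusted p was under 0.05. MYC at -2.71 lies below every member, the members run from -0.82 (GNL3) to 1.03 (NOP2), and 4 of the 6 RNA polymerase I members are among the lowest.

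Against DSF alone, DSF+NSM was lower for 23 members (21.4% of all genes) and higher for 6 (21.7%), where 43.1% of all genes changed, with a median of -0.60. The largest differences were POLR1A at -2.06 ± 0.20 (adjusted p 1.06e-05), UBTF at -2.01 (3.57e-07) and NOP16 at -1.72 (3.05e-05). The higher ones were NOP58 (1.09), NPM1 (0.87), DDX21 (0.85), NOP2 (0.64), FBL (0.48) and NOB1 (0.42). Of these, NOP2, FBL and NOB1 turned to -0.04, -0.20 and -0.27 under equal sums. On that scale 34 members were lower, and the median over all genes was -0.68. NSM and DSF differed for 30 members, 25 of them lower in NSM, where 44.4% of all genes changed.

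The order of the group means followed that of MYC, from DMSO through DSF and NSM down to DSF+NSM, for 14 members, as it did for 7.52% of all genes tested. These were POLR1B, POLR1C, GAR1, DKC1, NOP14, WDR43, WDR3, HEATR1, NOP16, PES1, RRP1, RRP1B, RRS1 and PPAN. For 15 members, POLR1A and NOP56 among them, NSM was lowest and DSF+NSM next, as for 7.78% of all genes. Neighbouring means in these orders often differed by less than their spread, while the MYC libraries of neighbouring groups did not overlap.

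The interaction asked whether the effect of NSM differed in the presence of DSF. For MYC it was -2.19 ± 0.31 (adjusted p 0.00044), a fall beyond the sum of the single-drug changes. Among the members 9 of 42 were called, a share not above the 26.1% of all genes. It was positive for 8, where 1632 of the 13502 genes were positive and 1895 negative, with NOP58 (1.72, adjusted p 0.00324), NOP2 (1.22, 0.000668) and UTP20 (1.14, 0.00568) the largest, and negative for UBTF. The median was 0.48 over the members and 0.01 over all genes. Equal sums gave 9 members negative and 3 positive with a median of 0.07 beside -0.40, and NOP2, NOP58 and UTP20 were called under every alternative tried. The count was 21 without NSM replicate 3 and 5 without DMSO replicate 2 or DSF replicate 1 or 2.

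Genes of the same pathway that were not members fell as well, with smaller medians. Of 131 other ribosome biogenesis factors, 66 fell and 20 rose with DSF+NSM (24.5% and 28.3% of all genes), with a median of -0.45. Under equal sums these were 109 and 4, where the median over all genes was -0.75. The 24.5% and 28.3% do not hold for that scale. With NSM 64 fell and 15 rose (23.7% and 25.4% of all genes), with a median of -0.49. With DSF 33 fell and 1 rose (5.95% and 11.9%), with a median of -0.34. The falls with DSF numbered from 7 without DSF replicate 2 to 63 without NSM replicate 3.

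Within that list, 3 of 9 other genes of RNA polymerase I transcription fell and 4 rose with DSF+NSM (24.5% and 28.3% of all genes). CD3EAP, the subunit now named POLR1G, was at 870 ± 8.30 (SD, n = 3) in DMSO and 168 ± 43.7 in DSF+NSM (-2.40 ± 0.21, adjusted p 1.99e-06), and URB2, a large subunit factor, was at -2.19 on the log2 scale (adjusted p 5.59e-06). TTF1, the factor that ends RNA polymerase I transcription, rose from 733 ± 24.4 to 2519 ± 403 (1.77, adjusted p 1.1e-06), and TAF1D, a subunit of the promoter factor SL1, from 911 ± 53.2 to 3075 ± 212 (1.75, adjusted p 6.08e-05). Both rises were still called under equal sums, at 0.98 and 0.97.

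MYC targets outside ribosome biogenesis showed a mixed picture. With DSF+NSM 11 of 23 were lower and 3 higher (24.5% and 28.3% of all genes), with a median of -0.36. Under equal sums 20 were lower and 1 higher, with a median of -1.14 beside -0.75 over all genes. The shares above do not hold for that scale. TFRC, the transferrin receptor, and CAD, of pyrimidine synthesis, fell by 1.69 and 1.64 on the log2 scale (adjusted p 3.23e-05 and 5.73e-05). HSPE1 and HSPD1, the mitochondrial chaperonins, rose by 1.87 and 1.02 (4.24e-06 and 0.000301), the latter not called under equal sums (0.23).

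The cytosolic ribosomal proteins, the products that the nucleolus assembles, were mostly higher with NSM and DSF+NSM on this scale. With DSF 1 of 79 rose and 1 fell (11.9% and 5.95% of all genes), with a median of 0.16. With DSF+NSM 76 of 79 rose (28.3% of all genes), with a median of 1.01, and with NSM 52 rose (25.4%), with a median of 0.55. Under equal sums 18 rose and 4 fell with DSF+NSM, with a median of 0.23 beside -0.75 over all genes. On the authors' scale the 1.01 stood beside 0.03 over all genes. The size of the rise from DMSO thus depended on the scaling, while the list median was above that of all genes on both scales.

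**Figure D5:**
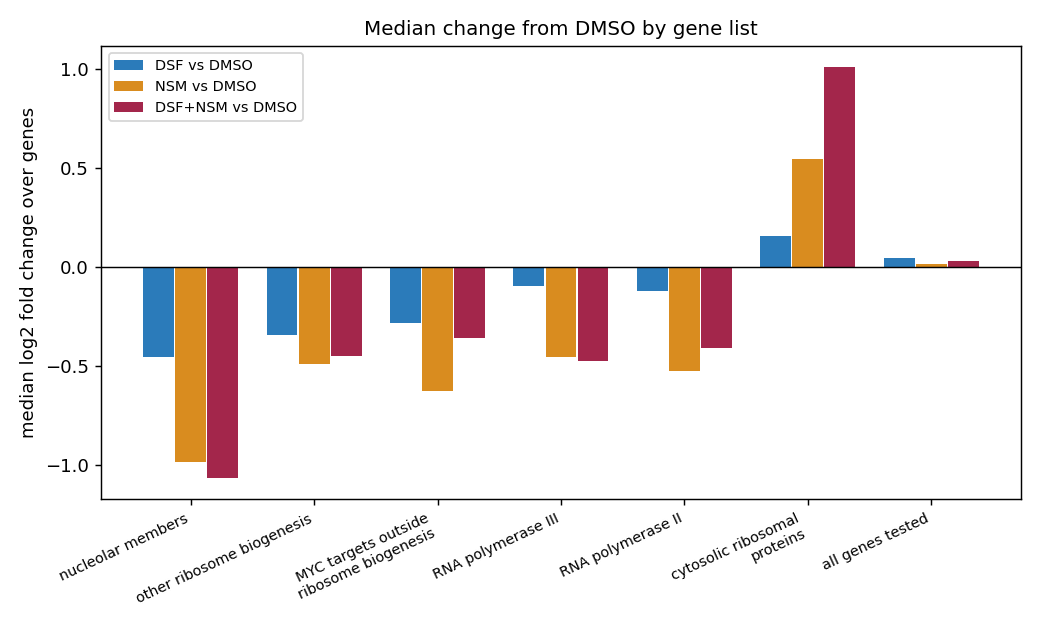
Bars give the median log2 fold change from DMSO (y axis) over the genes of each list (x axis) for DSF, NSM and DSF+NSM. The nucleolar members have the lowest medians, -0.45, -0.99 and -1.07, and the cytosolic ribosomal proteins alone are well above 0 (1.01 with DSF+NSM). Under equal sums their median is 0.23 with DSF+NSM, beside -0.75 over all genes.

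Rows for ribosomal RNA itself were also present, although the libraries were made from poly(A)-selected RNA, so that they hold only what escaped selection, and the precursor row overlaps the mature ones, among which reads may have been split. RNA45S5, the precursor, was at 9972, 12048 and 11220 in DMSO, 36522, 38653 and 26077 in DSF, 20048, 13578 and 4131 in NSM, and 137361, 128507 and 144060 in DSF+NSM libraries. The DSF+NSM libraries were above all others, and the NSM libraries spread over the DMSO range. The change was 1.59 ± 0.41 with DSF (adjusted p 0.021, not called in 5 of 23 alternatives), -0.09 with NSM (adjusted p 0.878, between -0.56 and 0.58 over the alternatives) and 3.63 with DSF+NSM (adjusted p 1.56e-05). The 4 nuclear rRNA rows held 1.11% to 2.84% of the summed values in DMSO, 3.71% to 4.98% in DSF, 0.643% to 3.69% in NSM and 6.35% to 7.96% in DSF+NSM libraries.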

How the data were processed

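SHI-1 libraries were made from mRNA selected on dT beads and sequenced as read pairs. According to the paper's methods, the authors trimmed reads with trimmomatic, quantified them with STAR and Salmon against NCBI GRCh38 and used DESeq2; the submitters' processing notes name bcl2fastq 2.19, Trimmomatic, Bowtie2, Picard, featureCounts and DESeq2 with hg38 instead, so the aligner and counter are uncertain. Each library has 1 table deposited by the authors, and its signal values are gene counts that they normalized over 24 libraries, as its header says; 12 of these were used here. Only 32.5% to 33.0% of nonzero values per library were whole multiples (tolerance 0.01) of the library's step, so reads were not recovered and no count test was run.

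Values were transformed as log2(value + 1), genes reaching 10 in 3 or more libraries were tested (13502 of 14866), and all 12 libraries were fitted with limma 3.58.1 in R 4.3.3 (trend, robust empirical Bayes, no replicate block, Benjamini-Hochberg adjustment over all genes tested, threshold 0.05, two-sided). The comparisons were each drug group with DMSO, DSF+NSM with each drug, NSM with DSF, and the interaction. The p-values measure the spread between experiments that the paper calls independent. Whether replicate numbers pair the libraries was not settled. The correlations of 18 same-numbered pairs of deviations ran from -0.064 to 0.28, with 2 over 0.1. The limma step was tested on simulated data. Positions and exons came from GENCODE 44 and sequences from RefSeq (GRCh38.p14); the deposited tables carry no coordinates. Figures were drawn with matplotlib 3.10.9.

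Members and lists were chosen with earlier results of these data known. All members may be named; per-library values are given for MYC, RNA polymerase I members, NCL, NPM1, FBL and, among called members with a mean of at least 50, the 5 largest falls and rises with DSF+NSM, the 3 largest with DSF or NSM and the 3 largest interactions of each sign; those of DKC1 and GNL3 were added after their values were seen. Of each other list, the 2 largest falls and rises with DSF+NSM may be named. A result that this rule selects is not reported here. Alternatives were the median of ratios, a trimmed mean of M values, equal sums with and without rRNA rows, pseudocounts of 0.1 and 10, a minimum of 10 in all libraries or no minimum, a fit of the compared groups alone, library weights, replicate number as a block, and omission of single libraries.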

Additional observations from a re-analysis of the deposited data

Results flagged for a closer look

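The effect of NSM differed with and without DSF, by the interaction in limma, for MYC, 9 members and the rRNA precursor row. For the 42 members this share was not above the 26.1% of all genes. The interaction on the log2 scale was -2.19 for MYC and -0.57 for UBTF, so that both were lower in DSF+NSM than the sum of the single-drug changes gives. It was positive for TSR1 (0.52, adjusted p 0.0453), NOLC1 (0.76, 0.0285), WDR12 (0.83, 0.00849), NOP56 (0.84, 0.026), DDX18 (0.94, 0.00511), UTP20 (1.14), NOP2 (1.22) and NOP58 (1.72). For RNA45S5, the rRNA precursor, it was 2.12 (adjusted p 0.0184). When the libraries were scaled to equal sums, the calls of TSR1, NOLC1, WDR12, NOP56 and DDX18 were lost while their sign was kept, and those of NOLC1, NOP56, TSR1 and UBTF were also lost without at least 1 library.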

How the results depend on the processing

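Counts of members called moved by over 1.5 times in 3 comparisons. For DSF against DMSO the 16 became 33 with only the groups compared, 35 with library weights, and 3 to 28 when a library was left out. For DSF+NSM against NSM the 15 became 23 under equal sums, 5 with only the groups compared, 35 with weights, and 9 to 22 when a library was left out. For the interaction the 9 became 30 with weights and 5 to 21 when a library was left out. The weights did not converge fully. In the other comparisons all alternatives gave counts within 1.5 times, and leaving out a library gave 31 to 39 for NSM, 31 to 37 for DSF+NSM, 26 to 35 for DSF+NSM against DSF and 24 to 34 for NSM against DSF. With the replicate block the counts were 15, 33 and 34 for DSF, NSM and DSF+NSM against DMSO, 29 and 15 for DSF+NSM against DSF and NSM, 30 for NSM against DSF and 11 for the interaction, and 4 of 12 libraries correlated best with their own number in every other group.

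Directions turned mainly under equal sums, which shift all genes down in DSF+NSM. The median of DSF+NSM over all genes was then -0.75 against DMSO, -0.68 against DSF and -0.48 against NSM. For DSF+NSM against DMSO the log2 fold changes were then -0.63 for NOP58, -0.42 for FBL, -0.60 for NPM1, -0.33 for NOP2, -0.61 for DDX21 and -0.39 for NOB1, and with rRNA rows left out of the sums -0.51, -0.30, -0.48, -0.20, -0.48 and -0.27. Against DSF they were -0.20 for FBL (-0.11 without rRNA rows), -0.045 for NOP2 and -0.27 for NOB1 (-0.18), and against NSM -0.14 for POLR1A (-0.053) and -0.16 for POLR1E (-0.074). UBTF with DSF was at -0.044 (-0.0078) and, with NSM, RRN3 was at -0.017 and DDX21 at -0.22 (-0.19, and -0.20 with weights). When a library was left out, the range was -0.072 to 0.018 for RRP12 with DSF (0.01 without DSF replicate 2), -0.057 to 0.020 for NOB1 with DSF (0.01 without DMSO replicate 3), and with NSM -0.28 to 0.26 for DDX21 and -0.53 to 0.12 for WDR75. The cause of these changes was not tested beyond the scaling itself.

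Each group had 3 libraries of 1 cell line, and the values give ratios between groups on a chosen scaling, not RNA per cell. Reads per gene were not recovered, so what depth limits was not tested, and the lowest estimated depth was that of DSF+NSM replicate 3.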

Other observations

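The other nuclear RNA polymerases moved in both directions. Of 21 genes of RNA polymerase III, 11 fell and 4 rose with DSF+NSM (24.5% and 28.3% of all genes), with a median log2 fold change of -0.48. Under equal sums 17 fell and 1 rose, where the median over all genes was -0.75. The shares above do not hold for that scale. POLR3B, the second largest subunit, went from 532 ± 48.2 normalized counts (SD, n = 3) in DMSO to 187 ± 30.8 in DSF+NSM (-1.52, adjusted p from limma 5.45e-06). BRF2, an initiation factor of a subset of RNA polymerase III genes, rose from 248 ± 12.7 to 1266 ± 230 (2.34, adjusted p 1.9e-07), and was still higher under equal sums (1.55). POLR3F rose by 0.52 (adjusted p 0.0316), a call lost in 8 of 23 alternatives (adjusted p up to 0.0998 when a library was left out), and it was at -0.26 under equal sums.

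Of 12 subunits of RNA polymerase II, 5 fell and 1 rose with DSF+NSM (24.5% and 28.3% of all genes), with a median of -0.41. Under equal sums 10 fell, where the median over all genes was -0.75 and the shares above do not hold. POLR2F and POLR2D were at -0.94 (adjusted p 7.86e-05) and -0.88 (9.97e-05), and POLR2C at 0.75 (0.00107), which was -0.04 under equal sums. Without NSM replicate 3 the counts were 8 and 2.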
